A study of Homo sapiens with 5 samples.

Results

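The genes described here are 55 genes that copy DNA or carry a cell from the G1 phase of the cell cycle into S phase, chosen by name from the machinery of DNA replication. All 55 were measured, among the 18417 genes kept from the arrays, which are those with a probe set annotated to exactly 1 symbol. The RNA came from Nalm6 clones (a human leukaemia cell line of the B-precursor lineage), grown with 20% heat-inactivated serum and 200 mg/dl glucose. The groups were 3 clones labelled MondoA shRNA, which carry a short hairpin RNA (shRNA) against the glucose-responsive transcription factor MondoA, and 2 control clones carrying a nonsense shRNA. Both groups thus carry an shRNA, each clone gave 1 array, and the promoter driving the shRNA is not given in the sources used here. Replicates are clones of 1 cell line, so p-values measure the spread between clones.

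Replication is prepared in G1, when the origin recognition complex (ORC), CDC6 and CDT1 load the ring-shaped MCM helicase onto DNA, a step called licensing that geminin (GMNN) blocks after S phase has begun. Cyclin D with CDK4 or CDK6, and then cyclin E with CDK2, release the E2F transcription factors, which switch on many of these genes. CDC45 and the GINS complex turn MCM into an active helicase, primase and the polymerases copy the strands, and the sliding clamp PCNA, loaded by the RFC complex, holds the polymerases on DNA.

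All values are log2 RMA expression, in which 1 unit is a doubling if the base of the logarithm is 2. Values from 1 probe set are compared between clones, and levels of different genes are not ranked against each other. The levels in the 3 MondoA shRNA clones are always given in the order of their numbers 1, 2 and 3, followed by control clones 1 and 2, and means carry the SD over n = 3 and n = 2 clones. A control SD of 0.00 means that RMA gave both control arrays the same value. This happens often with RMA: 28 of the 55 genes had at least 1 value shared exactly between arrays, as did 14116 of all genes. In bulk RNA, a different share of cells in S phase and a different amount of RNA per cell cannot be told apart.

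The RNA of the target itself did not separate the groups. MLXIP, which encodes MondoA, read 6.42, 6.47 and 6.29 in the MondoA shRNA clones, against 6.42 and 6.42 in the control clones. MondoA shRNA clone 1 and both control clones had exactly the same value, so the interval rests on few distinct values. The difference was -0.03 (95% interval -0.21 to 0.16, adjusted p = 0.959 by limma), so all directions below refer to the labels of the clones and not to a measured loss of MondoA RNA. Of 10 marker genes of B-cell precursors 8 were measured, and the means of all 8 over the 5 arrays were above the median gene mean of 4.15. Among markers of other lineages, 1 of 5 for T and natural killer cells, 1 of 4 for myeloid cells, 0 of 2 for erythroid cells and 1 of 3 for fibroblasts lay above that level. The level is passed by 9208 genes and depends on the probes, so these counts alone do not establish the lineage. Some B-precursor markers did not overlap between the groups, in both directions. DNTT differed by -1.19 and RAG1 by -0.45, and CD79A by 0.91 and CD79B by 0.25 (adjusted p = 0.833 by limma for each). The rest overlapped.

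In all but 4 of the 55 genes the 95% interval of the difference between the groups included 0. The array means of 54 of them lay above the median gene mean, a mark that depends on the probes as well as on the RNA, and that of the cyclin D2 gene CCND2 lay below it. The differences, MondoA shRNA minus control shRNA, ran from -0.40 (POLD1) to 0.57 (TIPIN), with 38 genes above 0 and 17 below. Those above 0 were 69.1% of the 55, against 54.4% of all genes and 53.9% of genes above the median gene mean. Differences of 0 were left out of these shares. The median difference of the 55 genes was 0.05, against 0.00 over all genes and 0.01 over the 9208 genes above the median gene mean. The median rested on 1 clone: without MondoA shRNA clone 2 it was -0.01, with 25 genes above 0 and 29 below, and without MondoA shRNA clone 1 it was 0.11.

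No gene of the 55 passed limma with Benjamini-Hochberg adjustment over all genes at an adjusted p under 0.05, where 0 of the 18417 genes (0%) passed. At an unadjusted p under 0.05 stood 4 genes, or 7.27%, against 3.73% of all genes and 5.90% of genes above the median gene mean. These were MCM5, MCM6 and RPA1 on the higher side, where 1.55% of all genes stood, and POLD1 on the lower side, where 2.18% stood. In 11 genes (20.0%) every MondoA shRNA clone lay outside the range of the control clones, 7 above it and 4 below, against 10% of all genes (4.85% above and 5.18% below). Of the genes above the median gene mean, 15.6% were apart in this way, 7.22% above and 8.36% below. Among genes with no value shared between arrays the shares were close, 9 of 27 members (33.3%) against 31.0% of 4301 genes. On the higher side these were 18.5% against 14.4%, and on the lower side 14.8% against 16.6%. In a limma fit on such genes alone, 3 of the 27 members (11.1%) stood at an unadjusted p under 0.05, against 12.8% of the 4301. These 3 were MCM6, GINS3 and POLD1, whereas MCM5 (unadjusted p = 0.0556 by limma) and RPA1 (unadjusted p = 0.147 by limma) did not reach it. The 95% interval of the difference lay within 1 unit of 0 for 51 of the 55 genes and within 0.5 units for 31.

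**Figure D1:**
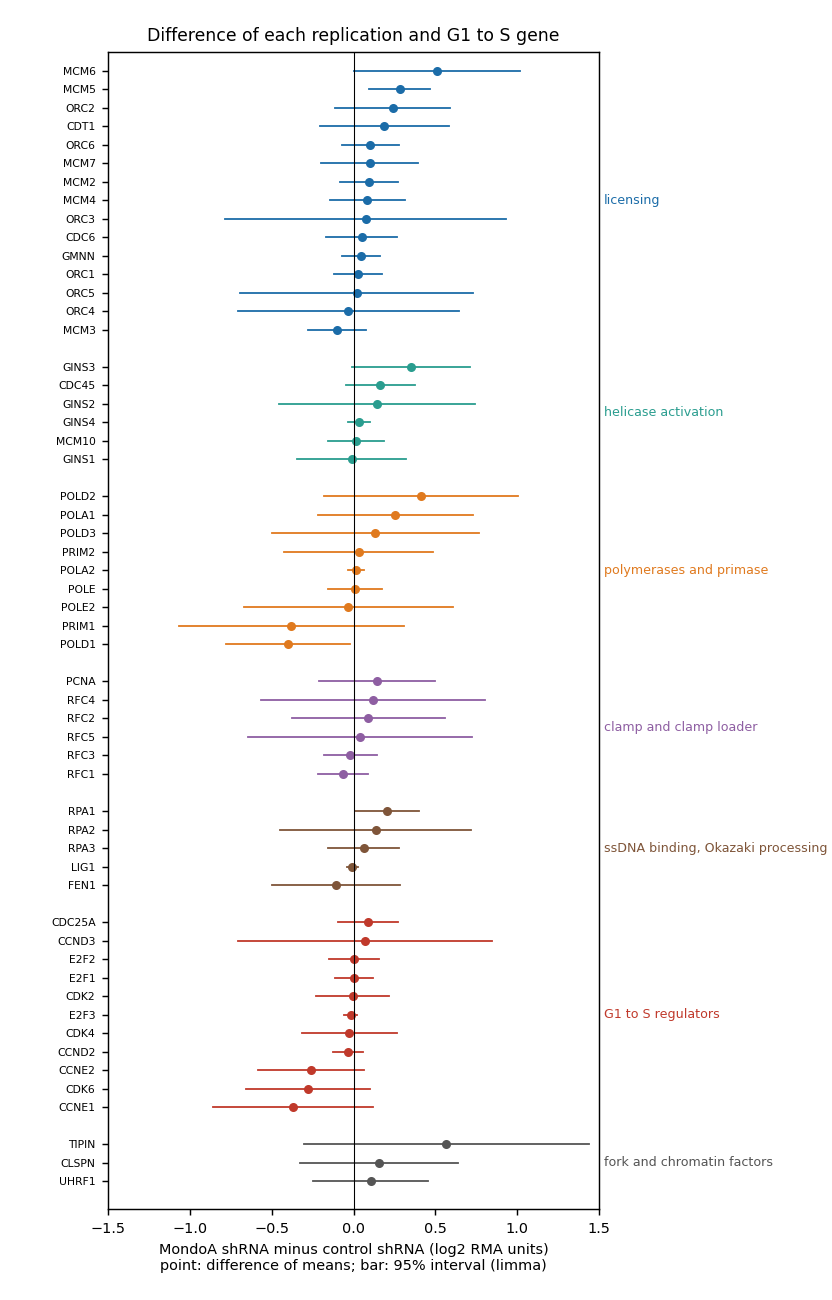
Difference between the clones labelled MondoA shRNA and the control clones for each of the 55 genes, grouped by role, in log2 RMA units, with 95% intervals from limma as bars. The points run from -0.40 for POLD1 to 0.57 for TIPIN, and most intervals include 0.

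The promoters of the genes with an unadjusted p under 0.05 are shown because E2F factors switch on many replication genes, and the MCM6 promoter alone of the 3 available holds a match to the E2F motif. They are RefSeq sequences of build GRCh38.p14, 250 bases before to 50 after the gene start. The table used holds no MCM5 entry. The MCM6 promoter is chr2:135876394-135876693 (minus strand), the POLD1 promoter chr19:50384073-50384372 (plus strand) and the RPA1 promoter chr17:1829755-1830054 (plus strand). Capitals mark matches, on either strand, to the E2F motif forms TTTCCCGC, TTTCGCGC, TTTGCCGC and TTTGGCGC, or to the E-box CACGTG.
MCM6: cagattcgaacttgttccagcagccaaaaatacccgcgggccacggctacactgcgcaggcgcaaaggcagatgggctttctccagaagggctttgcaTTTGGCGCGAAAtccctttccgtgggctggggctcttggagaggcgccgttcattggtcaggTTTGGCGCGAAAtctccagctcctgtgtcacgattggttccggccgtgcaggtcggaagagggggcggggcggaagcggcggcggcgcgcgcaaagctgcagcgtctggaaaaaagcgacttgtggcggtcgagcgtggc
POLD1: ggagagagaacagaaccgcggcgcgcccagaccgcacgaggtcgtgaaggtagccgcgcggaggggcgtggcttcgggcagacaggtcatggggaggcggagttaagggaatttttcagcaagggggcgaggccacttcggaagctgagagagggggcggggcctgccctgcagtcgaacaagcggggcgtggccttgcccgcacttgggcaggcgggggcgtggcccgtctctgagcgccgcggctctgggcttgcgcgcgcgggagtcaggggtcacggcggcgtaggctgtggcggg
RPA1: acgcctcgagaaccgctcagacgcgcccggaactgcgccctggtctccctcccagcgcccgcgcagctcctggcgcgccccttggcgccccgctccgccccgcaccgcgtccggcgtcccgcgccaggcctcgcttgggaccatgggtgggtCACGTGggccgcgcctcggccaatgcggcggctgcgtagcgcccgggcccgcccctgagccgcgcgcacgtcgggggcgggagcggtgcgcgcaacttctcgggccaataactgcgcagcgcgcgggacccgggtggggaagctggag
The MCM6 promoter has 4 matches to the E2F forms, which overlap in pairs, so they fall at 2 places that begin at positions -152 and -90 from the gene start. RPA1 has 1 E-box, at position -98, and no E2F match, and POLD1 has no match to either motif. Of the 46 members with a promoter in the table, 23 (50%) held an E2F form, against 3.3% of all 35116 promoters. An E-box was found in 7 (15.2%) of the 46, against 7.3% of all promoters. Each member was counted with 1 promoter, whereas the 35116 were not reduced to 1 per gene, so these shares rest on unlike sets. A match is a run of letters and not a measured binding site.

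Of the 15 licensing genes, 13 had a difference above 0 and 2 below, with a median of 0.08, which ran from 0.04 to 0.14 when 1 clone at a time was left out. At an unadjusted p under 0.05 stood 2 of the 15, both helicase subunits on the higher side. The share was 3.73% of all genes in either direction and 1.55% on the higher side. Of the genes above the median gene mean it was 5.90% in either direction. None of the 15 passed the adjusted test. With 1 clone at a time left out, the differences of ORC1, ORC3, ORC4 and ORC5 changed sign at least once. Those of the other licensing genes kept their sign.

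Among the 6 subunits of the MCM2 to MCM7 ring the differences were uneven. MCM6 read 9.55, 9.96 and 9.69 in the MondoA shRNA clones and 9.37 and 9.08 in the control clones. All 3 MondoA shRNA clones lay above both controls, and the means were 9.73 ± 0.21 and 9.22 ± 0.20. The difference was 0.51, or 1.42-fold (95% interval 0.004 to 1.02, unadjusted p = 0.0489 and adjusted p = 0.833 by limma). With control clone 2 left out it was 0.37, and with control clone 1 left out 0.65. MCM5 read 9.21, 9.35 and 9.38 in the MondoA shRNA clones, against 9.01 and 9.05 in the control clones. The groups did not overlap and both were tight, at 9.31 ± 0.09 and 9.03 ± 0.03. Its difference of 0.28 (1.22-fold) had an interval from 0.10 to 0.47 and the lowest unadjusted p of the 55 genes, 0.0146 (adjusted p = 0.833 by limma).

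The other ring subunits differed less. MCM2 read 8.77, 8.77 and 8.92 against 8.75 and 8.70, so the groups were apart by a narrow gap (difference 0.09). MCM7 differed by 0.10 and MCM4 by 0.08, with overlapping clones. MCM3 had the lowest difference of the licensing genes, with 9.31, 9.23 and 9.31 in the MondoA shRNA clones and 9.46 and 9.31 in the control clones. Its difference was -0.10 (95% interval -0.28 to 0.07), and MondoA shRNA clone 3 had the same value as control clone 2.

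Among the origin recognition subunits, ORC3, ORC4 and ORC5 varied widely between the MondoA shRNA clones. ORC3 read 6.91, 7.74 and 7.23 in the MondoA shRNA clones, which bracketed the control values of 7.31 and 7.13. Its SD over the MondoA shRNA clones, 0.42, was the largest of the 55 genes, and its difference was 0.07 (95% interval -0.78 to 0.93). ORC4 and ORC5 had the same shape, with clone 1 lowest and clone 2 highest: ORC4 read 4.41, 5.08 and 4.79 against 4.79 and 4.79, and ORC5 5.55, 6.26 and 5.87 against 5.87 and 5.87. In these subunits the groups overlapped fully. ORC2 differed by 0.24, ORC6 by 0.10 and ORC1 by 0.03, and the loading factors CDT1 and CDC6 by 0.19 and 0.05. Geminin, the inhibitor of CDT1, differed by 0.05 (95% interval -0.07 to 0.16).

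Of the 6 genes that activate the loaded helicase, 5 had a difference above 0, with a median of 0.09, which was 0.02 without MondoA shRNA clone 2. GINS3, a subunit of the 4-part GINS complex, read 8.22, 8.32 and 8.57 in the MondoA shRNA clones and 8.004 and 8.03 in the control clones. Every MondoA shRNA clone was above both controls, and the difference of 0.35 (1.27-fold) had an interval from -0.01 to 0.71 (unadjusted p = 0.0548, adjusted p = 0.833 by limma). The partner subunits overlapped between the groups, and their difference from GINS3 was not tested. GINS1 read 7.64, 7.94 and 7.68 against 7.79 and 7.74, a difference of -0.01, and GINS4 differed by 0.03. GINS2 read 8.11, 8.67 and 8.30 against 8.14 and 8.30, and its difference of 0.14 was -0.01 without MondoA shRNA clone 2.

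CDC45, which joins MCM and GINS in the active helicase, read 8.10, 8.25 and 8.10 in the MondoA shRNA clones and 8.04 and 7.93 in the control clones. The groups were apart, with a difference of 0.16 (95% interval -0.05 to 0.37), or 0.11 without control clone 2. MCM10, which helps to start unwinding, differed by 0.01.

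**Figure D2:**
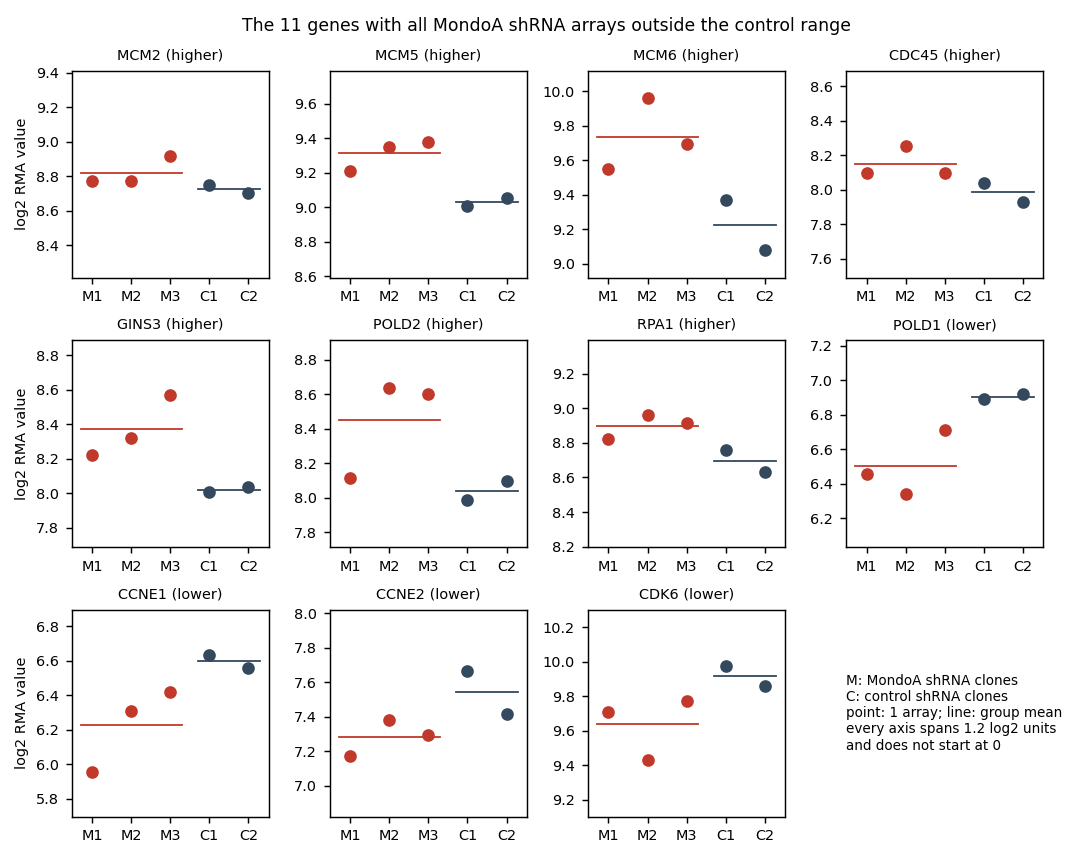
Log2 RMA value in each clone for the 11 genes in which every MondoA shRNA clone (M1 to M3, red) lay outside the range of the control clones (C1 and C2, dark). Lines are group means, and each vertical axis spans 1.2 log2 units without starting at 0. MCM6 and POLD2 show the widest gaps between means on the higher side, and POLD1 and CCNE1 on the lower side.

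The 9 polymerase and primase genes went both ways, with 6 above 0, 3 below and a median of 0.02, which ran from -0.01 to 0.04 with 1 clone left out. This group held the lowest difference of all 55 genes. POLD1, the catalytic subunit of polymerase delta, read 6.46, 6.34 and 6.71 in the MondoA shRNA clones, against 6.89 and 6.92 in the control clones. All 3 MondoA shRNA clones were below both controls, with means of 6.50 ± 0.19 and 6.91 ± 0.02. The difference was -0.40, or 0.76-fold (95% interval -0.78 to -0.02, unadjusted p = 0.0426, adjusted p = 0.833 by limma).

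POLD2, the accessory subunit of the same enzyme, had the opposite direction. It read 8.11, 8.64 and 8.60 in the MondoA shRNA clones and 7.99 and 8.09 in the control clones. Clone 1 lay only just above the controls, while clones 2 and 3 were well above them, and the difference was 0.41 (95% interval -0.18 to 1.00). POLD3, another accessory subunit, overlapped between groups (difference 0.13). The difference between the subunits was not tested.

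PRIM1, the catalytic primase subunit that makes the RNA primer, read 8.16, 8.80 and 8.31 against 8.89 and 8.72. Clones 1 and 3 were below both controls and clone 2 lay between them. The difference of -0.38 had an interval from -1.07 to 0.31, and it was -0.57 without clone 2 and -0.25 without clone 1. PRIM2, its partner, differed by 0.03. PRIM2 has near copies elsewhere in the genome, and signal shared with them was not tested. The polymerase alpha subunits POLA1 and POLA2 differed by 0.25 and 0.02, and the polymerase epsilon subunits POLE and POLE2 by 0.01 and -0.03.

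In the clamp and its loader, 6 genes, no gene separated the groups and the median difference was 0.06, which ran from -0.04 to 0.20 with 1 clone left out. PCNA, the sliding clamp, read 9.36, 9.65 and 9.36 in the MondoA shRNA clones and 9.36 and 9.27 in the control clones. Clone 2 stood apart, and the difference was 0.14 (95% interval -0.21 to 0.50), or 0.05 without clone 2. RFC1, the large loader subunit, was lowest with 8.26, 8.36 and 8.37 against 8.44 and 8.35 (difference -0.07). RFC4 read 7.41, 8.06 and 7.57 against 7.55 and 7.57, and RFC5 7.90, 8.58 and 8.19 against 8.23 and 8.14. In both small subunits clone 2 was highest and clone 1 lowest, as in ORC3 to ORC5. RFC2 differed by 0.09 and RFC3 by -0.02.

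RPA, the complex that coats single-stranded DNA, and the enzymes that join Okazaki fragments make up 5 genes, 3 above 0 and 2 below, with a median of 0.06 that was 0 without MondoA shRNA clone 2. RPA1, the large RPA subunit, read 8.82, 8.96 and 8.91 in the MondoA shRNA clones, against 8.76 and 8.63 in the control clones. The groups did not overlap, and the difference was 0.20 (1.15-fold, 95% interval 0.01 to 0.40, unadjusted p = 0.0442, adjusted p = 0.833 by limma). RPA2 read 6.98, 7.52 and 7.05 against 7.05 and 7.05, so its difference of 0.13 came with clone 2 alone above the controls, and it was -0.03 without that clone. RPA3 differed by 0.06. FEN1, the nuclease that trims flaps, read 8.31, 7.94 and 8.23 against 8.23 and 8.31, where clone 2 was the low one (difference -0.11). The DNA ligase gene LIG1 had the same value in every clone but MondoA shRNA clone 1, with a difference of -0.01 (95% interval -0.04 to 0.03).

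Of the 11 regulators of the G1 to S step, 7 had a difference below 0 and 4 above, with a median of -0.02, which ran from -0.05 to 0 with 1 clone left out. The groups were apart in 3 of them, all on the lower side. On that side 5.18% of all genes, 8.36% of genes above the median gene mean and 16.6% of genes with no shared value were apart. The last share compares with the 6 regulators that had no shared value, which include these 3. CCNE1, which encodes cyclin E1, read 5.96, 6.31 and 6.42 in the MondoA shRNA clones and 6.64 and 6.56 in the control clones. All MondoA shRNA clones were below both controls, and the difference was -0.37, or 0.77-fold (95% interval -0.86 to 0.12). CCNE2, which encodes cyclin E2, read 7.17, 7.38 and 7.29 against 7.67 and 7.41, a difference of -0.26 (95% interval -0.58 to 0.07, unadjusted p = 0.0889, adjusted p = 0.833 by limma). Without MondoA shRNA clone 1 the difference of CCNE1 was -0.23, and without control clone 1 that of CCNE2 was -0.13. Their kinase partner CDK2 differed by -0.005 (95% interval -0.23 to 0.22).

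CDK6, a cyclin D partner, read 9.71, 9.43 and 9.77 in the MondoA shRNA clones and 9.97 and 9.86 in the control clones. The groups did not overlap, and the difference was -0.28 (95% interval -0.66 to 0.10), or -0.18 without MondoA shRNA clone 2. Its relative CDK4 differed by -0.03. CCND3, which encodes cyclin D3, read 9.56, 10.16 and 9.44 against 9.68 and 9.62. Clones 1 and 3 were below both controls and clone 2 above, so the sign of its difference, 0.07, turned to -0.15 without clone 2. CCND2 read 3.05, 3.05 and 2.98 against 3.05 and 3.07, below the median gene mean in every clone. Whether it was detected was not assessed.

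The E2F activators were nearly flat. E2F1 read 7.19, 7.07 and 7.13 in the MondoA shRNA clones, against 7.13 and 7.13 in the control clones, and its 95% interval ran from -0.12 to 0.12. E2F2 had an interval from -0.15 to 0.16 and E2F3 from -0.06 to 0.02. RMA gave shared values in all of these genes. E2F2 read 7.83 in MondoA shRNA clone 1 and both control clones, and E2F3 5.67 in every clone but control clone 1. Their narrow intervals thus rest on few distinct values. The phosphatase gene CDC25A, which activates CDK2, had the highest difference of the regulators at 0.09, with 7.49, 7.49 and 7.63 against 7.49 and 7.41.

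The last 3 genes protect the fork or copy chromatin marks. TIPIN, a partner of the fork protection factor TIMELESS, read 6.61, 7.02 and 6.45 in the MondoA shRNA clones and 6.45 and 5.80 in the control clones. Its difference of 0.57 was the highest of the 55 genes, but the control clones had an SD of 0.46 and clone 3 shared a value with control clone 1. The interval ran from -0.30 to 1.44, and the difference was 0.25 without control clone 2 and 0.89 without control clone 1. UHRF1, which helps to copy DNA methylation, read 9.30, 9.26 and 9.58 against 9.26 and 9.30, and its difference was 0.10. CLSPN, the checkpoint mediator claspin, differed by 0.16 at the probe set kept and by -0.19 at its other probe set. The probe sets of CLSPN thus had opposite signs, and those of UHRF1 did too, with -0.10 at the dimmer one. That UHRF1 value came from MondoA shRNA clone 2 alone, at 3.34 against 3.65 in every other clone, all below the median gene mean. These were the only 2 of the 55 genes with more than 1 probe set.

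In the median, the spread between the clones labelled MondoA shRNA exceeded the group difference. The SD over the 3 MondoA shRNA clones had a median of 0.15 over the 55 genes, against a median absolute difference of 0.09. The corresponding medians over the genes above the median gene mean were 0.13 and 0.08. Between the 2 control clones the median SD of the 55 genes was 0.04.

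**Figure D3:**
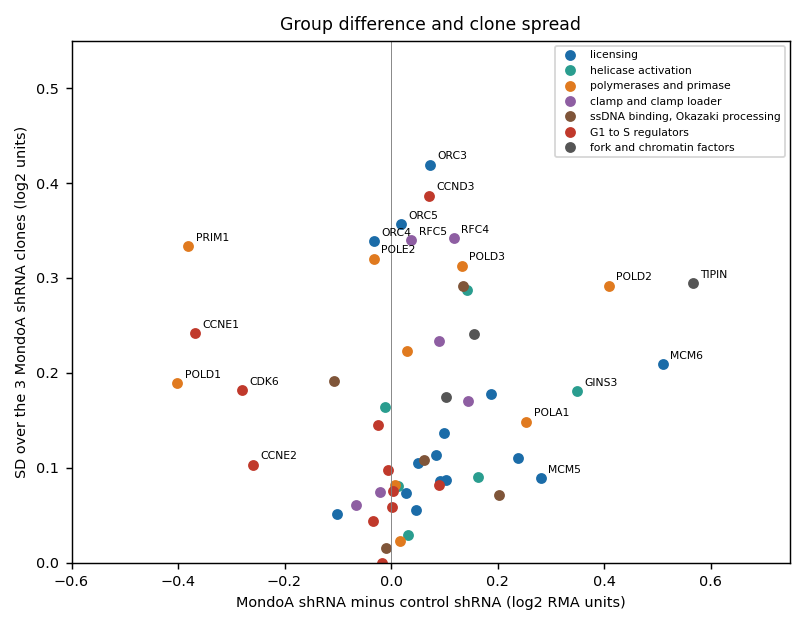
SD over the 3 clones labelled MondoA shRNA against the difference from the control clones, both in log2 units, for each of the 55 genes coloured by role. ORC3 has the largest SD at 0.42 with a difference of 0.07, whereas MCM5 differs by 0.28 with an SD of 0.09.

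Clones 1 and 2 lay at opposite ends. MondoA shRNA clone 2 read higher than clone 1 in 41 of the 55 genes, lower in 8 and equal in 6, and the median of clone 1 minus clone 2 was -0.14. Over genes above the median gene mean, clone 2 was the higher in 63.0%, with a median of -0.10. Among the 27 members with no shared value, clone 2 was the highest of all 5 arrays in 13 (48.1%) and clone 1 the lowest in 14 (51.9%). Over the 4301 such genes the shares were 38.4% and 37.2%. Clone 2 was thus most often the highest and clone 1 most often the lowest in both sets, and whether the shares differ was not tested.

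The widest spread, an SD over 0.3, was found in 9 genes (16.4%), against 11.8% of genes above the median gene mean. These were ORC3, ORC4, ORC5, PRIM1, POLD3, POLE2, RFC4, RFC5 and CCND3. Clone 2 was the highest of the 3 MondoA shRNA clones in all 9 and clone 1 the lowest in 7. Among the 1087 genes of that spread above the median gene mean, clone 2 was highest in 77.3% and clone 1 lowest in 67.3%. In no role group did the median deviation of MondoA shRNA clone 1 from the 5-clone mean lie above 0.

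**Figure D4:**
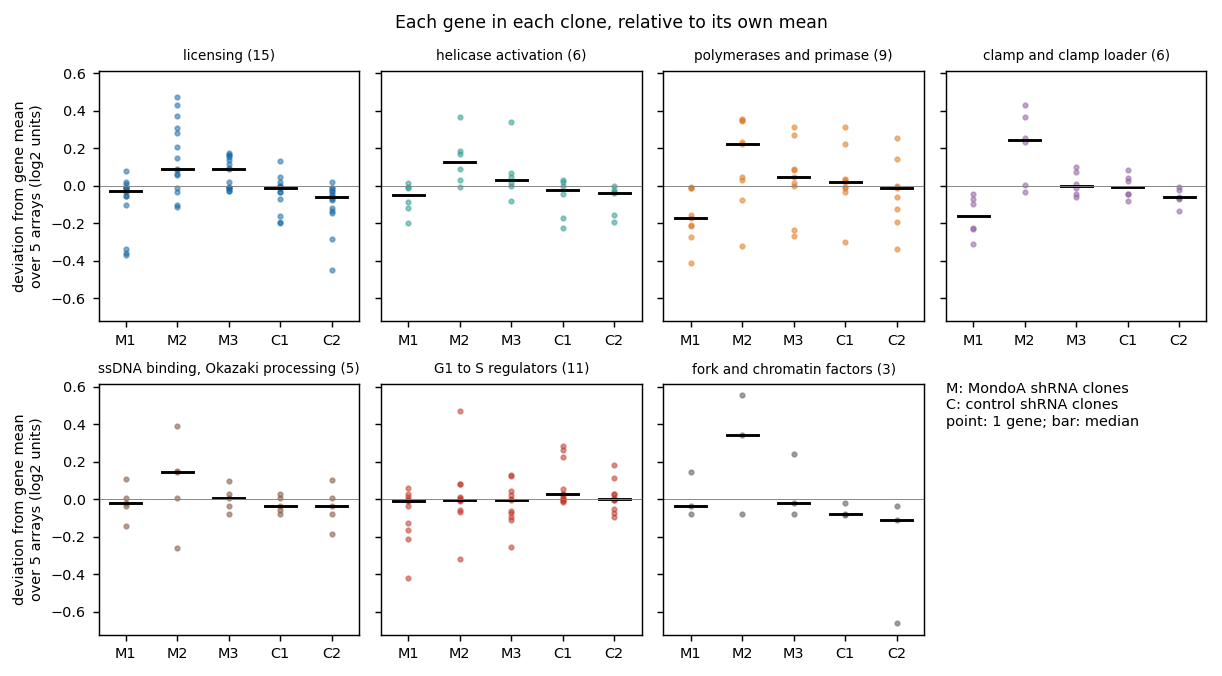
Deviation of each gene from its own mean over the 5 clones, in log2 units, in the MondoA shRNA clones (M1 to M3) and the control clones (C1 and C2), by role, with black bars for medians. Clone M2 has the highest median in every role except the G1 to S regulators, and in the clamp and clamp loader the medians are -0.16 for M1 and 0.24 for M2.

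A further 51 measured genes of replication and the G1 to S step were set beside these, with 29 above 0, 21 below, 1 at 0 and a median of 0.04. At an unadjusted p under 0.05 stood 4 of them, 2 in each direction, against 3.73% of all genes and 5.90% of genes above the median gene mean. None passed the adjusted test. CDKN1A, which encodes the inhibitor p21 of the cyclin-dependent kinases, read 6.39, 6.74 and 6.36 in the MondoA shRNA clones and 7.42 and 7.37 in the control clones. The groups were far apart relative to their spread, with a difference of -0.90, or 0.53-fold (unadjusted p = 0.00482, adjusted p = 0.833 by limma). TYMS, the thymidylate synthase gene, read 9.80, 10.06 and 9.89 against 10.49 and 10.26, a difference of -0.46 with the groups apart. TYMS lies on chromosome 18, where 120 of 126 genes above the median gene mean had a difference below 0 (median -0.36), and the part of this in its value was not tested. None of the 55 genes lies on that chromosome.

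On the higher side, the repressive factor E2F4 read 7.88, 8.02 and 8.01 in the MondoA shRNA clones and 7.73 and 7.79 in the control clones (difference 0.21). DNA2, a nuclease and helicase of Okazaki fragments, read 6.82, 6.997 and 6.88 against 6.73 and 6.67 (difference 0.20). POLE4, an accessory subunit of polymerase epsilon, had the highest difference of these genes at 0.29. In all 3 the MondoA shRNA clones lay above both controls, and all had an adjusted p of 0.833 by limma. The 20 mitosis genes, which act after replication, had 10 differences above 0 and 10 below, with a median of 0.01. In them too, clone 2 was above clone 1 in 18 of 20 genes, with a median of -0.33 for clone 1 minus clone 2.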

How the data were processed

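RNA (200 ng per clone) was hybridised to 5 Affymetrix arrays whose probes cover whole transcripts. The deposited values are log2 RMA signals, made by the authors with Affymetrix Expression Console 1.1, per the submitters' processing notes. No source used here states the logarithm's base, and 2 was assumed. The number of arrays limits the precision, and detection calls were not used. Of 33297 probe sets, 19460 had 1 symbol in the platform annotation, 1754 several and 12083 none, and only the first kind was used. Of the 19460, 19429 matched a RefSeq gene of GRCh38.p14 by Entrez number. For each gene the brightest probe set (by its mean over all 5 arrays) was kept.

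Every gene was fitted with limma 3.58.1 in R 4.3.3 (empirical Bayes moderation, two-sided, Benjamini-Hochberg adjustment over 18417 genes). All 55 genes passed the table unfiltered. The fit was tested on 20 simulated data sets with 200 changed genes each. Of changes of 1 log2 unit 65.3% passed an adjusted p under 0.05 by limma, and of changes of 3 units 96.2%. Of unchanged genes 0.0738% passed. Changes under 1 unit, the size of all 55 differences here, were not simulated. The simulated noise was normal and held no shared values, unlike the real arrays. These shares thus cannot say how many real changes of such sizes would pass. In the real fit 40 genes differed by more than 1 unit, and none of them passed. Alternatives are given in the closing section. The members, lists, roles and motifs were chosen with earlier results of these data known. Values in each clone are given for members at an unadjusted p under 0.05 and, per role, for the highest, lowest and most variable member. ORC4, ORC5, MCM2, CDC45, RFC5, CCNE2, CDK6, CCND2 and E2F1 were added after their values were seen, as was the RPA1 promoter.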

Additional observations from a re-analysis of the deposited data

How the results depend on the processing

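None of the 55 genes passed an adjusted p under 0.05 in limma under any alternative run. These were renewed quantile normalisation, centring, brighter genes alone, all probe sets, averaged probe sets, another prior, no moderation, array weights, genes without shared values, the replicate block, an adjusted p under 0.1 and each clone left out. The count over all genes, 0 (687 at an unadjusted p under 0.05), became 2 with renewed quantile normalisation, 2 with centring, 3 without moderation, 60 among genes without shared values, and 0 to 752 with 1 clone left out. The cause was not tested. Without control clone 1 or 2, which gave 752 and 454, the lone control borrows its spread from the MondoA shRNA clones.

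The members higher at an unadjusted p under 0.05, 3, became 6 with renewed quantile normalisation, 6 with array weights, 1 with a trend and robust prior, 1 without moderation and 0 to 6 with 1 clone left out (6 without MondoA shRNA clone 1, and 0 without MondoA shRNA clone 2 or either control). Those lower, 1, became 4 with renewed quantile normalisation, 0 without moderation and 0 to 3 with 1 clone left out (3 without MondoA shRNA clone 2). The median difference of the 55 genes ran from -0.01 to 0.11 with 1 clone left out. In these 5 fits, 30 of the 55 genes kept the sign of their difference throughout. The other 25 changed sign or reached 0 in at least 1 fit, so the counts of genes above and below 0 depend on single clones.

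Deviations of same-numbered clones correlated at -0.306 and -0.244. These values cannot decide whether the shared replicate numbers pair the clones, since deviations within so few arrays depend on each other. Blocking on replicate number (the replicate block), the member counts were 2 higher and 1 lower and the median was 0.04. MLXIP turned to 0.027 with the block, which sets MondoA shRNA clone 3 aside, and ran from -0.065 to 0.027 with 1 clone left out. Of 381 values for the 26 named genes, 13 changed sign, in 8 genes that never passed. They were GINS1 (0.027 with the block), CCND3 (-0.12 with array weights), UHRF1 (-0.00036 with averaged probe sets) and, with 1 clone left out, ORC3 (-0.15 to 0.27), GINS1 (-0.11 to 0.044), GINS2 (-0.014 to 0.27), RFC4 (-0.073 to 0.26), FEN1 (-0.18 to 0.00078), RPA2 (-0.033 to 0.23) and CCND3 (-0.15 to 0.21). CDKN1A passed among genes without shared values (-0.90).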
